A study of Mus musculus with 10 samples.

Results

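Amino acid transporter genes of the nephron were followed in mouse kidney: Slc7a9, Slc7a13, Slc3a1, Slc6a18, Slc6a19, Slc6a20b, Slc1a1, Slc7a7, Slc7a8 and Slc3a2. They were taken by name, 10 of the 46517 genes counted, and all 10 passed the filter on low counts. The measurements are bulk RNA sequencing of 10 kidney libraries from a study of human APOL1 variants expressed in podocytes, per the title, the epithelial cells of the glomerular filter. APOL1 encodes a secreted lipoprotein-associated protein, and its G1 and G2 alleles are known risk alleles for kidney disease in people. The groups by their genotype labels are G1-APOL1 (n = 2) and G2-APOL1 (n = 2), both labelled as risk alleles, Control (n = 3) and wild type (single mutant) (n = 3). The labels do not say what "single mutant" stands for, which promoter drives the variants, or the strain, sex and age of the mice. The labels do not say whether libraries are separate mice, so p-values measure the spread between libraries. Because whole kidney was measured, fewer cells of a type and less RNA per cell cannot be told apart.

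The proximal tubule takes back nearly all filtered amino acids. At its brush border, Slc7a9 joins the heavy chain Slc3a1 to form the cystine and dibasic amino acid exchanger whose loss causes cystinuria. The acidic amino acid and cystine carrier Slc7a13 pairs with the same heavy chain in the late proximal tubule. The neutral amino acid carriers Slc6a19 (mutated in Hartnup disorder) and Slc6a18 need collectrin, encoded by Cltrn, to reach the brush border. Slc6a20b is one of the mouse counterparts of the human imino acid carrier gene, and Slc1a1 takes up glutamate and aspartate. On the basolateral side, Slc7a7 (mutated in lysinuric protein intolerance) and Slc7a8 release dibasic and neutral amino acids as partners of the heavy chain Slc3a2.

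RefSeq promoter windows (GRCm38.p6) were matched for 8 of the 10 genes, all but Slc7a13 and Slc6a18, in 13 windows. The 250 bases before each start were searched on both strands for letters bound by 2 regulators of tubule or amino acid genes, and the windows with a match are shown because the RNA of Hnf4a and of ATF4 targets is described further on. The HNF4 letters CAAAGTCCA, matched exactly, occur in 0.387% of 32536 promoter windows of the same length. The ATF4 letters TTGCATCA, matched exactly, occur in 0.762%. Each motif was found in 1 member, and the matches do not overlap. Capitals mark the match: HNF4 at positions -39 to -31 from the start of Slc3a1 (chr17:85028097-85028346, plus strand), and ATF4, read on the other strand as TGATGCAA, at -243 to -236 of Slc7a7 (chr14:54417781-54417952, minus strand). Positions count from the RefSeq start. Of the 250 bases searched for Slc7a7, only the 172 outside the gene coordinates given below are shown.
Slc3a1: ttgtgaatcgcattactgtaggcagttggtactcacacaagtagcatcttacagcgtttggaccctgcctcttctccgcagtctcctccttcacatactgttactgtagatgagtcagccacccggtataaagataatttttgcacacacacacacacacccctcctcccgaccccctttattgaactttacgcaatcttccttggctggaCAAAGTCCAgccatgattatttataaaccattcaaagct
Slc7a7: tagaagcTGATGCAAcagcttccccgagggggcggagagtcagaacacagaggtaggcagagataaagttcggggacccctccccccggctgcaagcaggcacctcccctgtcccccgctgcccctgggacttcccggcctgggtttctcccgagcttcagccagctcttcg
The match is a description of these letters, and binding was not measured.

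Library totals ran from 27596391 to 34815153 counts, and each member had at least 248 counts in every library. Levels are counts per 1000000 (CPM) on library sizes scaled by the trimmed mean of M values (TMM). The scaling factors were 1.06 to 1.17 in the 4 risk allele libraries and 0.880 to 0.953 in the 6 others, and scaling by library totals alone moved the median log2 change of all genes from 0.00 to 0.28 in the comparison of the risk alleles with Control. Slc34a1, the phosphate carrier that marks the proximal tubule, stood at 7072 CPM ± 318 (SD, n = 3) in Control kidney. The library G1 replicate 2 stood apart in the sex chromosome genes: it had 359.6 CPM of Xist, which the inactive X chromosome transcribes, while the other 9 libraries had 0.19 to 1.13 CPM. The same library had 0.20 CPM of the Y-linked gene Ddx3y, and the others had 36.1 to 51.7 CPM. The members' G1 changes from Control at an adjusted p under 0.05 are therefore also given without that library. G1 is then a single library, and its spread is taken from the other groups. Most other G1 values, among them those of Slc6a20a and the counts for gene lists, include G1 replicate 2 and are not given without it.

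Set against Control, the mean of the G1 and G2 groups had lower RNA of 8 of the 10 transporters and higher RNA of 0, by edgeR's quasi-likelihood test at a Benjamini-Hochberg adjusted p under 0.05. Over all 17823 genes tested, 37.3% were called in either direction and 18% were called lower. The median log2 change of the 10 members was -0.93, beside 0.00 for all genes tested. The drop was deepest in Slc7a13, Slc6a20b and Slc6a19, and the members not called were the basolateral pair Slc7a8 and Slc3a2. All 4 risk allele libraries lay below all 6 others for 6 members (Slc7a13, Slc3a1, Slc6a18, Slc6a19, Slc6a20b and Slc1a1), as they did for 14% of all genes. Without G1 replicate 2, 7 members were called lower, since Slc6a18 no longer passed (log2 change -0.51, adjusted p 0.0896).

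**Figure D1:**
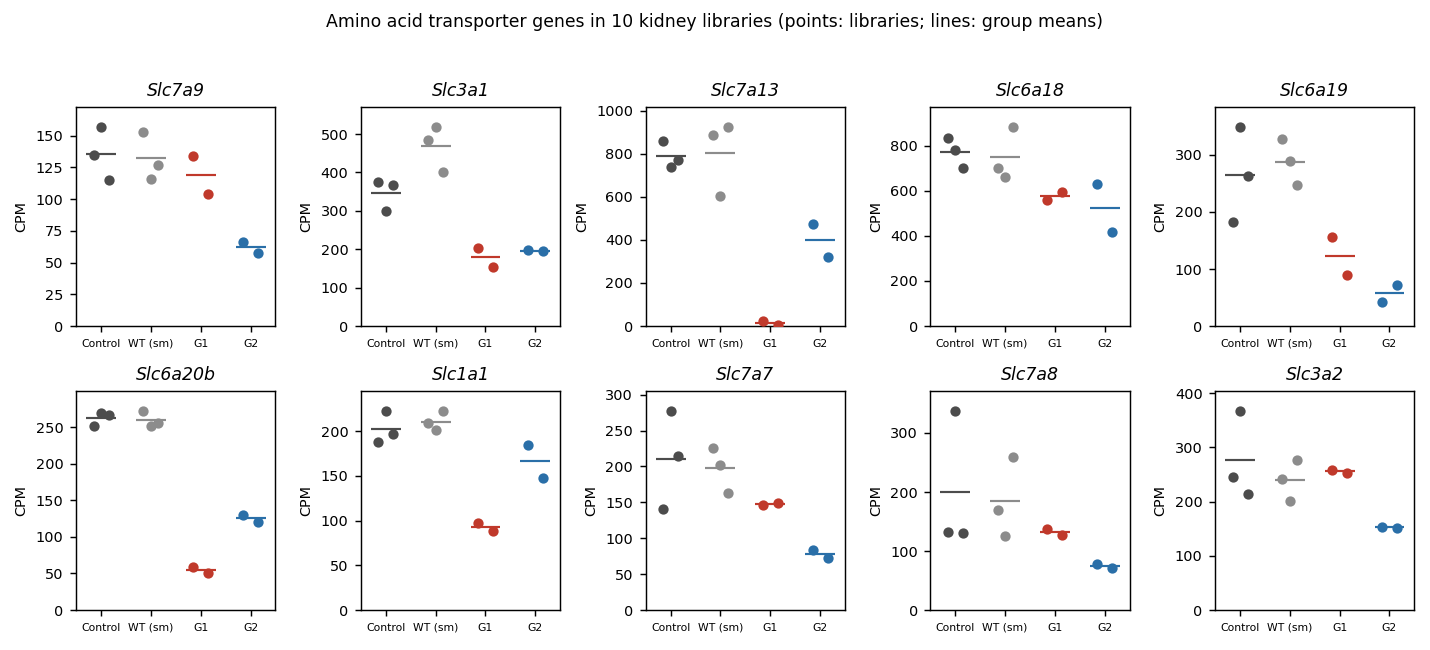
Level of each transporter gene in CPM (vertical axes, from 0) in the 3 Control, 3 wild type (single mutant), 2 G1 and 2 G2 kidney libraries; points are libraries and lines are group means. Slc7a13 falls to 21.7 and 6.25 CPM in the G1 libraries, and Slc6a20b lies at 251 to 272 CPM in the 6 reference libraries against 50.6 to 130.1 in the risk allele libraries.

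Slc3a1 encodes the heavy chain of the brush border exchangers (ENSMUSG00000024131.7, GRCm38 chromosome 17, 85028376 to 85064236, plus strand). Its levels were 375, 300.3 and 367 CPM in Control, 485, 518 and 402 CPM in wild type (single mutant), 203 and 154 CPM in G1, and 198 and 195 CPM in G2. Every risk allele library was below every other library, and the G2 libraries lay within the range of G1. The log2 change from Control was -0.89 ± 0.13 (SE, adjusted p 0.00126) for the risk alleles together, -0.96 ± 0.17 for G1 (adjusted p 0.00241) and -0.82 ± 0.17 for G2 (adjusted p 0.00936). Without G1 replicate 2 the G1 change was -0.74 (adjusted p 0.0403). The G2 call was lost narrowly without either G2 library (adjusted p 0.0506 without replicate 1 and 0.0504 without replicate 2). Its exons share 601 bases with Prepl on the opposite strand, and since the strand setting of the counting is not given, reads from those bases cannot be assigned.

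Its cystine partner Slc7a9 (ENSMUSG00000030492.15, chromosome 7, 35448796 to 35466036, plus strand) fell in G2. The levels were 135, 157 and 115 CPM in Control, 153, 116 and 127 CPM in wild type (single mutant), 134 and 104 CPM in G1, and 66.4 and 57.5 CPM in G2. G1 overlapped the reference libraries, while both G2 libraries were below all others. Slc7a9 fell in G2 by 1.13 ± 0.18 on the log2 scale (adjusted p 0.00374), and its change in G1 was -0.19 ± 0.18 (adjusted p 0.430; 0.10 with library totals alone and 0.01 without G1 replicate 2). For the risk alleles together it was -0.66 ± 0.15 (adjusted p 0.00784), a call that scaling by library totals alone removed (-0.39, adjusted p 0.0597).

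The other partner, Slc7a13 (ENSMUSG00000041052.8, chromosome 4, 19818725 to 19842218, plus strand), had the widest range of the 10. It stood at 861, 740.3 and 769.5 CPM in Control and at 886, 603 and 926 CPM in wild type (single mutant). In G1 it stood at 21.7 CPM in replicate 1 and 6.25 CPM in replicate 2, and in G2 at 476 and 321 CPM. The 4 risk allele libraries lay below the 6 others, and the G1 pair lay far below the G2 pair. The fitted level in G1 was 56.6-fold lower than in Control (log2 change -5.82 ± 0.56, adjusted p 0.000132), and without G1 replicate 2 the log2 change was -5.16. In G2 the log2 change was -0.99 ± 0.44 (adjusted p 0.141), which passed without G1 replicate 1 (adjusted p 0.0259) or G1 replicate 2 (0.0253), with DESeq2 (0.0484) and with only the groups compared (0.0314). Without any of the other 8 libraries it did not pass, up to an adjusted p of 0.414 without G2 replicate 2 (log2 -0.74). Slc7a13 is known to be male-biased in mouse kidney. Of the male-biased list of 12 genes, 9 fell in G1 against Control, 1 fell in G2, and 5 were higher in G2 than in G1. Slc7a13 is on that list and is itself among the 9 and the 5. Over all genes, 17.9% were called lower in G1 and 8.86% lower in G2 against Control, and 3.84% higher in G2 than in G1. Of 10 female-biased genes, 5 fell and 1 rose in G1 (median log2 change -1.22), and 1 fell and 1 rose in G2 (median -0.21). Summed over the male-biased list the libraries had 23698 to 44867 CPM in Control, 26371 to 53490 in wild type (single mutant), 1505 to 4122 in G1 and 17665 to 35102 in G2. G1 replicate 1, with the low Slc7a13 level of 21.7 CPM, had Ddx3y at 41.2 CPM and Xist at 1.13 CPM, within the range of the 8 libraries outside G1 for Ddx3y. Proximal tubule S3 markers, 14 genes of the late segment where Slc7a13 is known to be expressed, had 8 called lower and 1 called higher in G1 against Control and 0 lower and 1 higher in G2. They summed to 20220 to 40812 CPM in Control and 24525 to 49792 in wild type (single mutant). In G1 the sums were 3448 to 5243 CPM, and in G2 18390 to 37283. Kap is on both this list and the male-biased list and made up much of both sums. It stood at 15484 to 33119 CPM in Control, 2914 and 1072 in G1, and 30848 and 14153 in G2. The lists share other genes as well. The part of sex and of the S3 segment in the Slc7a13 difference was not tested.

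Slc6a19, the Hartnup carrier (ENSMUSG00000021565.15, chromosome 13, 73679745 to 73704865, minus strand), fell in both alleles. Control had 182, 349 and 263 CPM, wild type (single mutant) 329, 289.8 and 247 CPM, G1 156 and 89.6 CPM, and G2 42.9 and 72.4 CPM. All 4 risk allele libraries were below the 6 others, and G2 was below G1. The log2 change from Control was -1.65 ± 0.28 for both alleles together (adjusted p 0.00206), -1.11 ± 0.34 in G1 (adjusted p 0.0321) and -2.20 ± 0.36 in G2 (adjusted p 0.00402). The G1 call was not kept without G1 replicate 2 (-0.73, adjusted p 0.228), Control replicate 2 (-0.86, adjusted p 0.0794) or Control replicate 3 (-1.12, adjusted p 0.0621), with library totals alone (-0.82, adjusted p 0.0837) or with only the groups compared (-1.09, adjusted p 0.0508).

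Its neighbour Slc6a18, a carrier of glycine and other neutral amino acids (ENSMUSG00000021612.13, chromosome 13, 73661752 to 73678023, minus strand), had the smallest called difference. The levels were 834, 780.3 and 703 CPM in Control, 701, 662 and 883 CPM in wild type (single mutant), 558 and 594 CPM in G1, and 630.4 and 417 CPM in G2. The risk allele libraries lay just below the others, the nearest being 630.4 against 662 CPM. The log2 change for both alleles together was -0.49 ± 0.16 (adjusted p 0.0392), and neither G1 (-0.42, adjusted p 0.118) nor G2 (-0.56, adjusted p 0.0731) passed alone. Leaving out any of 7 single libraries (each Control library, each G1 library, G2 replicate 2 or wild type (single mutant) replicate 1) gave adjusted p from 0.0545 to 0.121, and library totals alone gave 0.279.

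Slc6a20b (ENSMUSG00000025243.13, chromosome 9, 123590800 to 123632565, minus strand) had the smallest SD relative to its mean in each reference group. Control had 251, 269 and 266 CPM, wild type (single mutant) 272, 251 and 256 CPM, G1 59.4 and 50.6 CPM, and G2 130.1 and 120.3 CPM. The risk allele libraries were all below the others and the alleles did not overlap, with G2 in between. The fall was 4.76-fold in G1 (log2 -2.25 ± 0.11, adjusted p 2.14e-05; -2.11 without G1 replicate 2) and 2.09-fold in G2 (log2 -1.07 ± 0.11, adjusted p 0.000637). Its exons share 1800 bases with Sacm1l on the opposite strand. The paralog Slc6a20a, the mouse's other counterpart of the human imino acid carrier gene, went the other way in G1: it rose from 15.1 CPM ± 1.43 (SD, n = 3) in Control to 29.8 CPM ± 5.29 (SD, n = 2), a log2 change of 0.97 ± 0.22 (adjusted p 0.00870). In G2 Slc6a20a stood at 16.8 CPM ± 4.30 (SD, n = 2). How the counting treated reads that match both paralogs is not given, so both values are uncertain to that extent.

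Slc1a1, the glutamate and aspartate carrier (ENSMUSG00000024935.9, chromosome 19, 28835049 to 28913960, plus strand), fell in G1. Control had 188, 223 and 197 CPM, wild type (single mutant) 209, 201 and 222 CPM, G1 97.4 and 88.8 CPM, and G2 185 and 148 CPM. G1 was far below every other library, and the higher G2 library was close to the lowest Control library. The log2 change was -1.12 ± 0.13 in G1 (adjusted p 0.000310; -1.03 without G1 replicate 2) and -0.29 in G2 (adjusted p 0.138). For both alleles together it was -0.71 ± 0.10 (adjusted p 0.00109). Its exons share 2631 bases with 4430402I18Rik on the opposite strand.

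On the basolateral side, all 3 genes had their lowest levels in the G2 libraries. Slc7a7 (ENSMUSG00000000958.8, chromosome 14, 54369442 to 54417780, minus strand) had 141, 277 and 215 CPM in Control, 226, 202 and 164 CPM in wild type (single mutant), 146 and 149 CPM in G1, and 84.1 and 72.4 CPM in G2. G1 overlapped Control, and G2 was below every other library. Slc7a7 fell by 1.43 ± 0.26 in G2 on the log2 scale (adjusted p 0.00621) and its change in G1 was -0.52 ± 0.25 (adjusted p 0.136), which was -0.74 without Control replicate 1 (adjusted p 0.0189) and -0.27 without Control replicate 2 (adjusted p 0.360). For both alleles together it was -0.98 ± 0.21 (adjusted p 0.00633). Its exons share 232 bases with Oxa1l on the opposite strand.

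Slc7a8 (ENSMUSG00000022180.6, chromosome 14, 54722209 to 54781946, minus strand) spread widely within the reference groups. Control had 132, 337 and 131 CPM, wild type (single mutant) 169, 125 and 259 CPM, G1 138 and 128 CPM, and G2 78.1 and 71.3 CPM. G1 lay among the references and G2 below all of them. The log2 change was -1.01 ± 0.35 for both alleles together (adjusted p 0.0520), -0.59 in G1 (adjusted p 0.313) and -1.42 ± 0.45 in G2 (adjusted p 0.0522). The pooled and the G2 values sit at the threshold: DESeq2 gave adjusted p 0.0111 and 0.00270, and leaving out Control replicate 1 gave 0.0396 and 0.0452. Without Control replicate 2, the library with the highest level, the log2 changes shrank to -0.40 (adjusted p 0.234) for the pooled value and -0.82 for G2, neither called, and the G1 change was 0.01.

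The shared heavy chain Slc3a2 (ENSMUSG00000010095.12, chromosome 19, 8706882 to 8723369, minus strand) had 246, 367 and 215 CPM in Control, 242, 202 and 277 CPM in wild type (single mutant), 258 and 254 CPM in G1, and 154 and 152 CPM in G2. G1 was in the middle of the references, and G2 was below all of them. Slc3a2 fell in G2 by 0.85 ± 0.22 on the log2 scale (adjusted p 0.0263), which did not hold without G2 replicate 1 (adjusted p 0.0935) or G2 replicate 2 (adjusted p 0.0975), with library totals alone (-0.61, adjusted p 0.0875) or with only the groups compared (adjusted p 0.0711). Its change was -0.11 ± 0.22 in G1 (adjusted p 0.715; 0.18 with library totals alone) and -0.48 ± 0.18 for both alleles together (adjusted p 0.0641; 0.0319 with DESeq2 and 0.0292 without Control replicate 3). Without Control replicate 2 that pooled change was -0.22 (adjusted p 0.238), and the G1 change was 0.15.

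Counted by allele, 5 members fell in G1 against Control, where 37.3% of all genes were called and 17.9% were called lower; without G1 replicate 2, 4 members fell, Slc6a19 no longer passing. In G2 against Control 6 members fell, where 21.6% of all genes were called and 8.86% were called lower. The median log2 change of the 10 members was -0.77 in G1 and -1.03 in G2. All 10 members were lower in both G2 libraries than in all 6 reference libraries, as were 18.1% of all genes; in G1 this held for 6 members and for 26.7% of all genes. Both comparisons share the Control libraries.

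The alleles were set against each other directly. In G2 against G1, 6.72% of all genes were called, 3.84% higher and 2.88% lower; of the members, 3 were higher in G2 and 1 was lower. Slc7a13 was higher in G2 by 4.83 ± 0.55 on the log2 scale (adjusted p 0.00609), Slc6a20b by 1.19 ± 0.11 (adjusted p 0.00325) and Slc1a1 by 0.84 ± 0.14 (adjusted p 0.0151). Slc7a9 was lower in G2, with a log2 difference of -0.94 ± 0.19 (adjusted p 0.0286). Slc6a19 (-1.09 ± 0.37, adjusted p 0.111; -1.14 and 0.0168 with DESeq2) and the basolateral genes Slc7a7 (-0.91, adjusted p 0.0824), Slc7a8 (-0.83, adjusted p 0.320) and Slc3a2 (-0.74, adjusted p 0.0985) were below G1 in both G2 libraries without passing in edgeR. Slc3a1 differed by 0.14 and Slc6a18 by -0.14. With 2 libraries an allele, these calls leaned on single libraries: without G1 replicate 2, which leaves 1 G1 library assumed to vary like the other groups, Slc7a13 had an adjusted p of 0.0307 (4.15), while Slc6a20b (1.02, adjusted p 0.0548), Slc1a1 (0.72, adjusted p 0.127) and Slc7a9 (-1.16, adjusted p 0.0822) did not pass, and calls over all genes went from 1198 to 22. Slc7a9 also lost its call without G1 replicate 1 (-0.75, adjusted p 0.179), G2 replicate 1 (-1.12, adjusted p 0.0501) or G2 replicate 2 (-0.88, adjusted p 0.123), and Slc1a1 without G1 replicate 1 (0.90, adjusted p 0.0861) or G2 replicate 1 (0.59, adjusted p 0.0546).

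**Figure D2:**
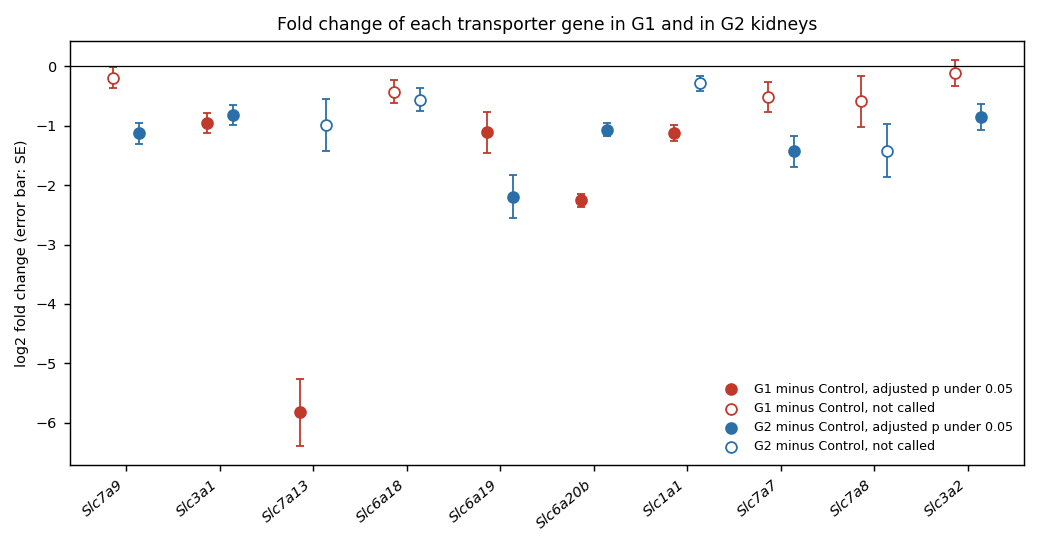
Log2 fold change against Control (vertical axis) of the 10 transporter genes in G1 (n = 2) and G2 (n = 2); points are edgeR estimates, bars are SE, and filled points are called at an adjusted p under 0.05. Slc7a13, Slc6a20b and Slc1a1 lie lower in G1, and Slc7a9, Slc7a7, Slc7a8, Slc3a2 and Slc6a19 lie lower in G2.

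The wild type (single mutant) group gave another reference. Against it the risk alleles had 7 members called lower and 0 called higher, where 40% of all genes were called 19.3% lower and 20.7% higher. The log2 change of Slc3a1 was -1.32 ± 0.14 (adjusted p 0.000178), of Slc7a13 -3.43, of Slc6a19 -1.78, of Slc6a20b -1.65, of Slc7a7 -0.88, of Slc1a1 -0.76 and of Slc7a9 -0.62. Slc7a8 (-0.89, adjusted p 0.0750), Slc3a2 (-0.28, adjusted p 0.244) and Slc6a18 (-0.45, adjusted p 0.0527) did not pass. Between wild type (single mutant) and Control, 0 members and 0% of all genes were called by edgeR; at an unadjusted p under 0.05 there were 724 genes and 1 member, and DESeq2 called 17 genes and 0 members. The member was Slc3a1, with all 3 wild type (single mutant) libraries above all 3 Control libraries (log2 0.43 ± 0.15). The other 9 differed by -0.20 to 0.12.

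Per kilobase of exon, the transporters ranked widely in Control kidney. Slc7a13 led with 369 CPM per kilobase ± 29.3 (SD, n = 3), and Slc6a18 (174.9 ± 14.96) and Slc3a1 (153.0 ± 18.1) followed with overlapping libraries. Slc3a2 (78.2 ± 22.8), Slc7a7 (63.7 ± 20.6), Slc6a19 (52.9 ± 16.7), Slc7a9 (50.6 ± 7.87) and Slc7a8 (39.98 ± 23.7) each overlapped the next, the last of them Slc6a20b (30.7 ± 1.14). Slc1a1 was lowest, at 24.6 ± 2.17 CPM per kilobase, and did not overlap Slc6a20b. The heavy chain Slc3a1 had more RNA per kilobase than its cystine partner Slc7a9 and less than Slc7a13.

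Partner genes were compared within each library as log2 ratios of their counts, which do not depend on the scaling. The 4 risk allele libraries were set against the 6 reference libraries for 7 pairs with an exact two-sided permutation test, whose smallest possible p is 0.00952, and p-values were adjusted over the 7 pairs. The Slc6a18 count relative to Cltrn was higher in every risk allele library (mean -0.31 ± 0.27, SD, against -1.04 ± 0.08; difference 0.73, exact p 0.00952, adjusted p 0.0333). Collectrin RNA itself fell, with 646 CPM ± 119 in G1 and 718 ± 154 in G2 (SD, n = 2 each) beside 1640 ± 216 in Control (n = 3; risk alleles against Control log2 -1.27 ± 0.18, adjusted p 0.000818), and Slc6a18 fell less. The ratio of Slc6a19 to Cltrn differed by -0.53 (exact p 0.267) and was not distinguished.

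The basolateral light chains were low relative to their heavy chain Slc3a2. Slc7a8 to Slc3a2 was -0.99 ± 0.08 (SD) in the risk allele libraries and -0.51 ± 0.33 in the references (difference -0.48, exact permutation p 0.00952, adjusted p 0.0333). The libraries did not overlap, but only narrowly: G1 replicate 1 was at -0.904 and Control replicate 1 at -0.898. Slc7a7 to Slc3a2 was -0.88 ± 0.13 against -0.34 ± 0.37, with overlap (difference -0.54, exact permutation p 0.0190, adjusted p 0.0444). At the brush border, Slc7a13 to Slc3a1 split the alleles: it was -3.23 and -4.62 in G1 and 1.27 and 0.72 in G2, beside 0.22 to 1.30 in the references, so the pooled difference of -2.44 was not called (exact permutation p 0.124, adjusted p 0.173). Slc7a9 to Slc3a1 was -0.60 and -0.57 in G1, above all references (-2.16 to -0.94), and -1.57 and -1.76 in G2, within them. The pooled differences of Slc7a9 to Slc3a1 (0.47, exact permutation p 0.162) and Slc3a1 to Slc3a2 (-0.75, exact permutation p 0.0667) did not pass. Leaving out G1 replicate 2 put the 3 called pairs at an adjusted p of 0.0556 each (differences 0.60, -0.48 and -0.58 for Slc6a18 to Cltrn, Slc7a8 to Slc3a2 and Slc7a7 to Slc3a2), where 3 libraries against 6 cannot give an exact p under 0.0238.

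**Figure D3:**
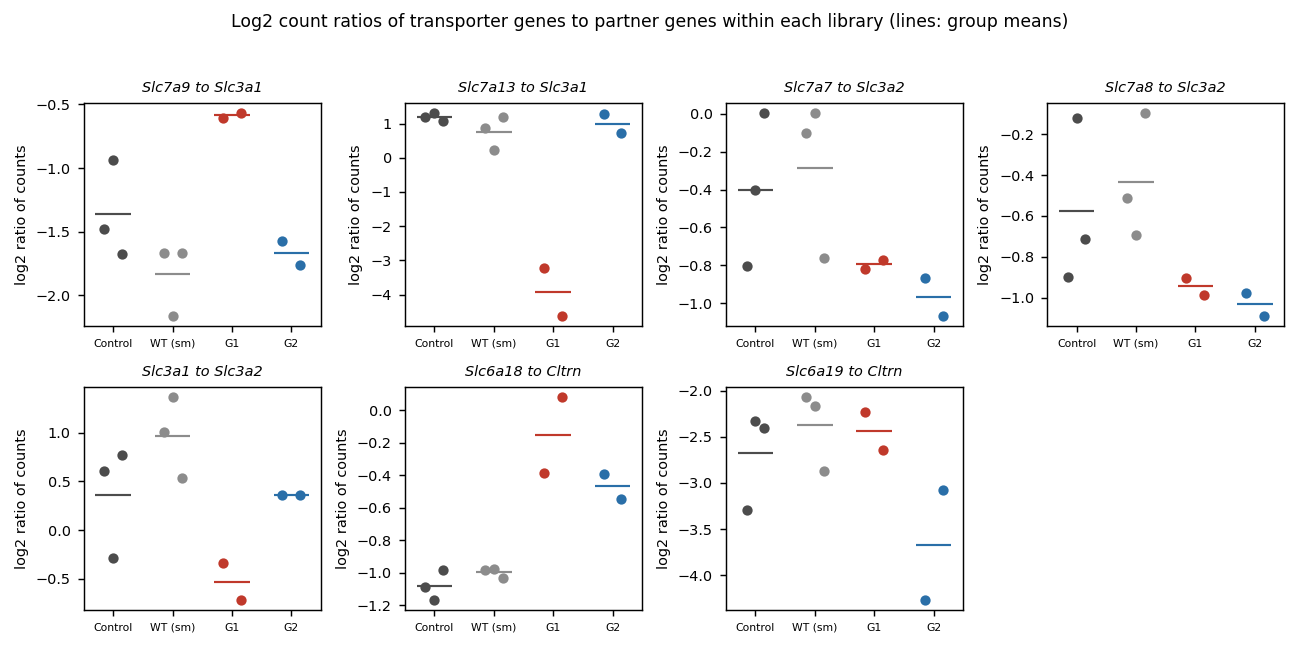
Log2 ratio of the counts of 2 partner genes within each library (vertical axes) for 7 pairs, by group; points are libraries and lines are group means. Slc6a18 to Cltrn is higher in all 4 risk allele libraries than in the 6 references, and Slc7a13 to Slc3a1 is low in the 2 G1 libraries only.

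The genes whose levels followed a member most closely over the 10 libraries were sought in the 9811 genes whose mean reached 10 CPM, by Pearson's r of log2 CPM. For Slc7a13 they were Cyp2a4 (r = 0.985), which is on the female-biased list, C8a (0.983), Ces1f (0.978), Inmt (0.978) and Slc22a30 (0.978). Slc22a30, an organic anion transporter family gene that is also on the male-biased list, had a mean of 166 CPM in the references, 3.11 in G1 and 106 in G2. For Slc7a9 they were Slc19a3 (0.971), Alpl (0.968), Gpx3 (0.952), Slc2a9 (0.949) and Acot6 (0.944); Alpl, tissue alkaline phosphatase, had a mean of 421 CPM in the references, 414 in G1 and 197 in G2. For Slc3a2 they were Spp2 (0.954), Slc27a4 (0.939), Acot3 (0.937), Renbp (0.933) and Sema4a (0.932). These values describe libraries that share their groups and their sequencing depth, and they carry no test.

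The rest of amino acid handling was read from lists of genes by function. Of 43 other plasma membrane carriers of amino acids and related compounds 38 were tested: for the risk alleles against Control, 7 rose, 6 fell and 25 did not pass, with a median log2 change of -0.13. Both counts were near the shares over all genes, 19.3% called higher and 18% called lower, so the genes named next are single genes of a list at that share. The glutamine carriers Slc38a2 (1.13 ± 0.16, adjusted p 0.000762) and Slc38a1 (1.12 ± 0.23, adjusted p 0.00557) rose, as did the large neutral amino acid carrier Slc7a5 (0.93 ± 0.14, adjusted p 0.00126), which also pairs with Slc3a2, and the glutamate carrier Slc1a2 (0.87 ± 0.20). Slc36a1, a proton-coupled carrier of small amino acids, fell (-0.88 ± 0.16, adjusted p 0.00346), as did Slc38a10 (-0.38 ± 0.07). The Slc38a2 level was 169 CPM ± 31.4 in G1 and 105 ± 6.33 in G2 (SD, n = 2 each), beside 60.7 ± 10.5 in Control (n = 3). In G2 against G1, Slc7a2, a cationic amino acid carrier, was higher in G2 (2.48 ± 0.50, adjusted p 0.0263).

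Of 12 brush border peptidases and hydrolases, which cut peptides into the amino acids these carriers take up, 9 fell and 1 rose (Dpp4, 0.45 ± 0.13, adjusted p 0.0284), with a median of -0.98. By allele, 7 fell and 1 rose in G1 (median -1.40), and 3 fell and 0 rose in G2 (median -0.59). Dpp4 changed by 0.86 in G1 and by 0.03 in G2 against Control. Dpep1, a dipeptidase, changed by -1.58 ± 0.20 (adjusted p 0.000486) and Ggt1, which breaks down glutathione, by -1.44 ± 0.20 (adjusted p 0.000868). The meprin genes Mep1a (1.96, adjusted p 0.0200) and Mep1b (3.30 ± 0.46, adjusted p 0.0106) were higher in G2 than in G1. In G2 against Control Mep1a changed by 0.19 and Mep1b by 0.50, neither called. Of 6 accessory proteins 3 fell (Cltrn, the scaffold Pdzk1 at -1.21 ± 0.19, and Slc9a3r2 at -0.49 ± 0.12).

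Of 36 genes of renal amino acid metabolism 34 were tested: 24 fell, 2 rose and 8 did not pass, with a median of -0.99. The proline oxidase Prodh (-1.74 ± 0.13) and Cbs, the first step of transsulfuration (-1.77 ± 0.14), fell. The arginase Arg2 rose, with 62.3 CPM ± 1.89 in G1 and 20.9 ± 3.06 in G2 (SD, n = 2 each) beside 5.75 ± 0.54 in Control (n = 3; log2 2.65 ± 0.16, adjusted p 4.03e-05), as did Phgdh, the entry to serine synthesis (1.27 ± 0.24). Of 24 targets of ATF4, the regulator of the amino acid response, 9 rose, 2 fell and 13 did not pass, with a median of 0.52. By allele, 9 rose and 2 fell in G1 (median 0.58), and 4 rose and 2 fell in G2 (median 0.17). Aldh18a1, in proline synthesis, rose by 2.19 ± 0.17 and the asparagine synthetase Asns by 1.54 ± 0.39 (adjusted p 0.0144), while Sesn2 fell by 0.79 and Vldlr by 0.57 on the log2 scale. In G2 against Control alone, Asns (1.22, adjusted p 0.0835) and Phgdh (0.71, adjusted p 0.0948) did not pass in edgeR. That list also holds Slc3a2, described above. Of 8 proximal tubule transcription factors 6 fell and 0 rose: Control had 989 CPM ± 19.3 of Hnf4a, G1 467 ± 36.1 and G2 447 ± 88.5 (log2 -1.11 ± 0.15, adjusted p 0.000601). The counts for the risk alleles together stand beside the 18% of all genes called lower and 19.3% called higher in that comparison. In G1 against Control these shares were 17.9% and 19.5%, and in G2 8.86% and 12.7%.

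**Figure D4:**
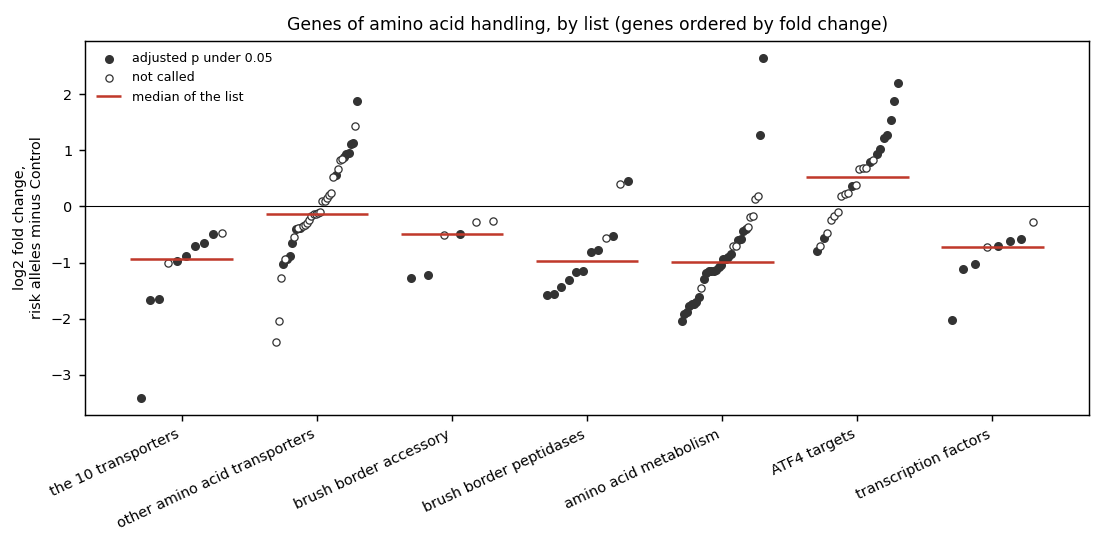
Log2 fold change of the risk alleles against Control (vertical axis) for the 10 transporters and 6 lists of amino acid handling genes, each point a gene tested, ordered within its list; filled points are called at an adjusted p under 0.05 and red lines are list medians. The transporters lie around -0.93, amino acid metabolism around -0.99, and the ATF4 targets around 0.52.

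Markers of cell types differed as well, some lists falling and others rising. Of 20 markers of proximal tubule segments S1 and S2, 20 fell in the risk alleles against Control, with a median log2 change of -1.45; summed they had 30397 to 32242 CPM in Control, 30120 to 32766 in wild type (single mutant), 8949 to 11348 in G1 and 12766 to 14886 in G2. All 10 tubular injury markers rose, and summed to 829 to 1317 CPM in Control, 890 to 1411 in wild type (single mutant), 21049 to 30179 in G1 and 5003 to 8799 in G2. Of 10 macrophage markers 9 rose (337 to 2122 CPM in Control, 301 to 489 in wild type (single mutant), 2180 to 2453 in G1 and 1667 to 2921 in G2). The highest Control sum held 1902 CPM of Cd74 in Control replicate 2, beside 314 and 180 CPM in Control replicates 1 and 3. Of 8 fibroblast markers 4 rose (250.3 to 406 CPM in Control, 580 to 797 in G1 and 1344 to 1803 in G2). By allele, 3 fibroblast markers rose and 2 fell in G1 (median log2 change -0.0006), and 4 rose and 0 fell in G2 (median 1.30). Of 8 T cell markers 5 rose. In the same comparison 9 of 12 male-biased kidney genes fell, and of 10 female-biased ones 5 fell and 1 rose. Outside the proximal tubule, 5 of 7 thick ascending limb, 6 of 7 distal convoluted and connecting tubule and 2 of 12 collecting duct markers fell. In the thick ascending limb list 1 marker rose. Over all genes 18% were called lower and 19.3% higher in this comparison, so the collecting duct count was near the share over all genes. No marker in these lists was at 0 in every library. The part of these markers' cells in the transporter differences was not tested.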

How the data were processed

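RNA of 10 mouse kidney libraries was sequenced as single-end reads of 100 bases after poly(A) selection, per the labels' protocols, which name different Qiagen column kits in different fields. The submitters' processing notes name CASAVA 1.8.2, FastQC, Trim Galore, STAR 2.4.1d, HTSeq 0.6.1 and the build GRCm38. Settings, annotation release and strand setting were not given. The deposited values are the authors' raw counts of reads per versioned Ensembl gene, with no normalization. Symbols and coordinates came from GENCODE M21 (46005 of 46517 identifiers matched). Libraries were compared in 45 pairs, and none agreed within sampling noise (lowest chi-square per gene 28.6). Totals ran from 27596391 to 34815153 counts, and precision covers counting and the spread between libraries.

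The counts were tested with edgeR 4.0.16 under R 4.3.3. Library sizes were TMM-scaled, genes under a minimum count of 10 in filterByExpr were left out (17823 kept), and 1 quasi-likelihood fit gave a mean to each of the 4 groups. Genes were called at a Benjamini-Hochberg adjusted p under 0.05 over all genes tested. Of the 6 comparisons, those with risk alleles use the mean of the G1 and G2 group means. Standard errors came from the log2 change and its F statistic. Partner ratios added 0.5 counts to each gene and were tested with exact permutations (scipy 1.17.1), and likeness used log2(CPM + 0.5). Alternatives were DESeq2 1.42.0, relative log expression (RLE) scaling, library totals alone, no filter, a fit of only the groups compared, and leaving out each library; DESeq2's own filtering leaves some adjusted p undefined, and those stay out of counts. The code was tested on simulated counts. Other tools were limma 3.58.1, Python 3.11.15, pandas 2.3.3 and matplotlib 3.10.9.

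The members and the gene lists were chosen with earlier results of these data known. The rule for names took all 10 members; where 0 were called, most are given as a range. From each list of amino acid handling genes, names came from the 6 with the lowest p in risk alleles against Control and the 4 with the lowest p in G2 against G1. For Slc7a13, Slc7a9 and Slc3a2 the 5 genes most like each were named, and up to 2 genes from marker lists. Slc6a20a, Dpp4, Vldlr, Kap, Cd74, Xist and Ddx3y were named after their values were seen. The human APOL1 transcript was not analysed here. Results that need items withheld for evaluation are not reported here.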

Additional observations from a re-analysis of the deposited data

Results flagged for a closer look

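Between the alleles, 4 members differed when G2 was tested against G1 directly with edgeR. Slc7a13 was higher in G2 by 4.83 on the log2 scale, with both G2 libraries (476 and 321 CPM) above both G1 libraries (21.7 and 6.25 CPM). Slc6a20b was higher in G2 by 1.19, at 130.1 and 120.3 CPM against 59.4 and 50.6 CPM. Slc1a1 was higher in G2 by 0.84, at 185 and 148 CPM against 97.4 and 88.8 CPM. Slc7a9 went the other way, with a log2 difference of -0.94, at 66.4 and 57.5 CPM against 134 and 104 CPM. Without G1 replicate 2, the library with Xist and nearly no Y-linked RNA, only Slc7a13 of these 4 was under an adjusted p of 0.05, in a fit whose single G1 library is assumed to vary like the other groups.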

How the results depend on the processing

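No paired analysis was possible because the labels pair no libraries: the replicate numbers used here follow accession order and only name them. Members called lower numbered 7 to 9 for the risk alleles against Control, 7 to 8 against wild type (single mutant), 4 to 6 in G1 and 4 to 7 in G2 against Control when 1 library was left out; 0 were called higher. DESeq2 called 10, 9, 5 and 9 in these 4 comparisons, and library totals alone 6, 6, 4 and 5. Over all genes, called in either direction, the main fit gave 6653, 7121, 6656 and 3843. DESeq2 gave 7033, 7478, 7085 and 4678, and library totals alone 7637, 7937, 7452 and 4945. In G2 against G1, members called lower (1) became 4 with DESeq2, 2 with no filter and 4 with only the groups compared, and ranged from 0 to 3 with 1 library left out; those called higher (3) ranged from 1 to 3. Over all genes, G2 against G1 gave 1198 calls, 2471 with DESeq2, 799 with only the groups compared, 84 and 22 without G1 replicate 1 and 2, 778 and 191 without G2 replicate 1 and 2, and 745 without Control or wild type (single mutant) replicate 1. G2 against Control gave 3843 calls, 2510 with only the groups compared and 1970 without G2 replicate 1. G1 against Control gave 6656, and 4112 and 3398 without G1 replicate 1 and 2. Wild type (single mutant) against Control gave 0, 4 with no filter, 2 and 1 without Control replicate 1 and 3. Partner ratios against Control libraries alone, where the exact p cannot go under 0.0571, were 0.77 for Slc6a18 to Cltrn, -0.48 for Slc7a7 to Slc3a2 and -0.41 for Slc7a8 to Slc3a2. With 1 library left out they were 0.60 to 0.81, -0.63 to -0.47 and -0.56 to -0.40, and lost their call in 8, 9 and 8 of 10 cases, in designs whose smallest exact p is 0.0238 (3 libraries against 6) or 0.0159 (4 against 5). Slc3a1 to Slc3a2 was -0.94 to -0.54, and passed without Control replicate 2. Changes of sign met only values that were not called. Library totals alone gave 0.18 for Slc3a2 and 0.10 for Slc7a9 in G1 against Control. With 1 library left out, G1 against Control ran from -0.26 to 0.15 for Slc3a2, -0.82 to 0.013 for Slc7a8 and -0.38 to 0.011 for Slc7a9. G2 against G1 ran from -0.10 to 0.34 for Slc3a1 and -0.54 to 0.089 for Slc6a18. Wild type (single mutant) against Control ran from -0.35 to 0.062 for Slc3a2, -0.18 to 0.036 for Slc6a18, -0.087 to 0.37 for Slc6a19, -0.048 to 0.010 for Slc6a20b, -0.086 to 0.20 for Slc7a13, -0.32 to 0.15 for Slc7a7, -0.44 to 0.49 for Slc7a8 and -0.16 to 0.080 for Slc7a9. The cause was not tested. Each member had at least 248 counts in every library, and each group has 2 or 3 libraries.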

Other observations

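Within the 6 reference libraries, Slc7a8 was highest in Control replicate 2 (337 CPM) and wild type (single mutant) replicate 3 (259 CPM). The same libraries had the highest levels of Slc7a12, a relative of Slc7a13 from the same family (29.1 and 52.3 CPM, beside 15.6 CPM in Control replicate 1 and 0.44 to 5.30 CPM in the other 3). They also had the highest levels of Prlr, the prolactin receptor (80.6 and 159 CPM, beside 51.3 CPM in Control replicate 1 and 3.07 to 11.2 CPM in the other 3). Slc7a12 and Prlr are known to be female-biased in mouse kidney, yet all 6 libraries had Ddx3y at 46.6 to 51.7 CPM and Xist at 0.29 to 0.44 CPM. These genes were chosen after their values were seen, and the relation was not tested.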
